A study of Mus musculus with 4 samples.

Results

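The genes described are those of the machinery of RNA polymerases I, II and III, measured in mouse LSK cells sorted for much or little c-Myc-eGFP fusion protein. Members were taken by gene symbol. The rule itself uses no measured values, but it was chosen with earlier results of these data known. It takes probe sets listed for 1 gene whose symbol starts with Polr1, Polr2, Polr3 or Gtf3c, is Taf1a, Taf1b, Taf1c or Taf1d, or is Rrn3, Ubtf, Brf1, Brf2, Bdp1, Maf1 or Znrd1. This gave 42 of the 18193 genes on the array, with 90 probe sets between them. Of the 42 genes, 20 had 1 probe set and 22 had more, up to 7. Polr2k and Polr2l each had a probe set listed together with another gene and were left out.

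LSK cells are bone marrow cells that lack lineage markers and carry c-Kit and Sca1, a mixture of haematopoietic stem cells and multipotent progenitors. They were sorted from the femurs of mice labelled WT B6/129 into a Hi and a Lo group by the fluorescence of the fusion protein, and each group was measured on 2 Affymetrix mouse arrays. Both groups were thus gated on the same fusion protein, and the labels name no drug or other treatment. The labels do not say whether the 2 arrays of a group came from separate animals or pools, so the p-values measure the spread between these arrays, which may be technical. From each sample, 5 ng of RNA was amplified with a NuGEN Ovation kit before hybridisation.

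RNA polymerase I makes the large ribosomal RNA precursor in the nucleolus, RNA polymerase II makes messenger RNAs, and RNA polymerase III makes transfer RNAs, the 5S ribosomal RNA and other short RNAs. Each enzyme is built from its own subunits and from small subunits that it shares with the others, and each is brought to its promoters by its own factors: SL1, UBF and Rrn3 for polymerase I, and TFIIIC and TFIIIB for polymerase III. c-Myc is known to stimulate transcription by all of them, in part through SL1 and TFIIIB, and Maf1 is known as a repressor of polymerase III.

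Over all probe sets the log2 intensities correlated at r = 0.990 between the Hi arrays, at r = 0.983 between the Lo arrays, and at r = 0.972 to 0.976 across the groups, where probe sets are not independent replicates. In these bulk samples, fewer cells of a type and less RNA per cell cannot be told apart. Marker genes of other cell types moved with the groups. At an unadjusted p under 0.05, 9.25% of all genes were higher in Hi and 11.0% lower. Of 5 measured erythroid markers, 4 were higher in Hi at an unadjusted p under 0.05, with summed intensities of 11436 and 13348 in Hi and 1894 and 2586 in Lo. Of 5 measured granulocyte-monocyte markers 3 were higher, with sums of 32146 to 34333 in Hi and 11738 to 13596 in Lo. Of 4 measured proliferation markers 3 were higher, with sums of 19073 to 19706 in Hi and 9750 to 11849 in Lo. Of 5 measured LSK and stem markers 4 were lower, with sums of 8307 to 8837 in Hi and 16130 to 18214 in Lo. The B and T lymphoid sums were 2551 to 2741 and 485 to 701 in Hi and 3323 to 3360 and 558 to 622 in Lo, with 0 of 4 and 1 of 5 members at that p, and Pax5 stayed under the dim limit of every array. Of the markers that define LSK cells, Kit had log2 levels of 11.39 and 11.58 in Hi and of 11.95 and 11.55 in Lo, which overlap; Sca1 (Ly6a) had no probe set of its own. The 3′ minus 5′ difference of the Gapdh control, a sign of RNA quality, was 0.63 and 0.65 on the Hi arrays, against 0.74 and 0.78 on the Lo arrays (log2). The Actb control had 0.60 and 0.55 on the Hi arrays, against 0.84 and 0.57 on the Lo arrays, so its groups overlapped. The part of cell composition and of RNA quality in the results below was not tested.

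By the brightest probe sets, the machinery as a whole stood close to the rest of the array. A few members of polymerases I and III and 2 shared subunits were higher in Hi at an unadjusted p under 0.05, as were 9.25% of all genes. None was by adjusted p. With each gene's probe sets averaged, the median of the members lay further from that of all genes, at 0.16 beside 0.05. With each gene represented by its brightest probe set, the median Hi minus Lo difference of the 42 genes was 0.05 on the log2 scale, beside 0.03 over all 18193 genes. The members ran from -0.47 for Maf1 to 1.46 for Polr2f, with 27 above and 15 below 0. In 13 of the 42 genes Hi lay above Lo on every array, against 30.0% of all genes, and in 7 it lay below on every array, against 25.4%; these shares were 31.0% and 16.7% of the members. At an unadjusted p under 0.05, 6 members were higher (14.3%, against 9.25% of all genes) and 0 were lower (against 11.0%). The 6 were Polr1b, Polr1e, Polr2f, Polr2h, Polr3d and Polr3f. A filter kept probe sets above the bacterial control level on both arrays of at least 1 group. With it, 5 members were higher at that p (11.9%, against 11.0% of the genes kept) and 0 were lower (against 14.3%). None of the 90 probe sets passed limma's adjusted p of 0.05, like 0 (0%) of all 45037 probe sets tested, and the smallest adjusted p of a member was 0.0906. A permutation test of 2 against 2 arrays cannot give a two-sided p below 0.333. With 1 array left out, the 6 higher genes became 2 without Hi replicate 1 and 3 without Hi replicate 2, where the share of all genes was 4.46% and 4.84%. The 0 lower genes became 3 (Gtf3c1, Maf1 and Polr2a) without Lo replicate 1, against 12.5% of all genes, and 1 (Polr3k) without Lo replicate 2, against 11.1%. The median of the 42 became 0.17 without Lo replicate 2 and -0.01 without Lo replicate 1.

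**Figure D1:**
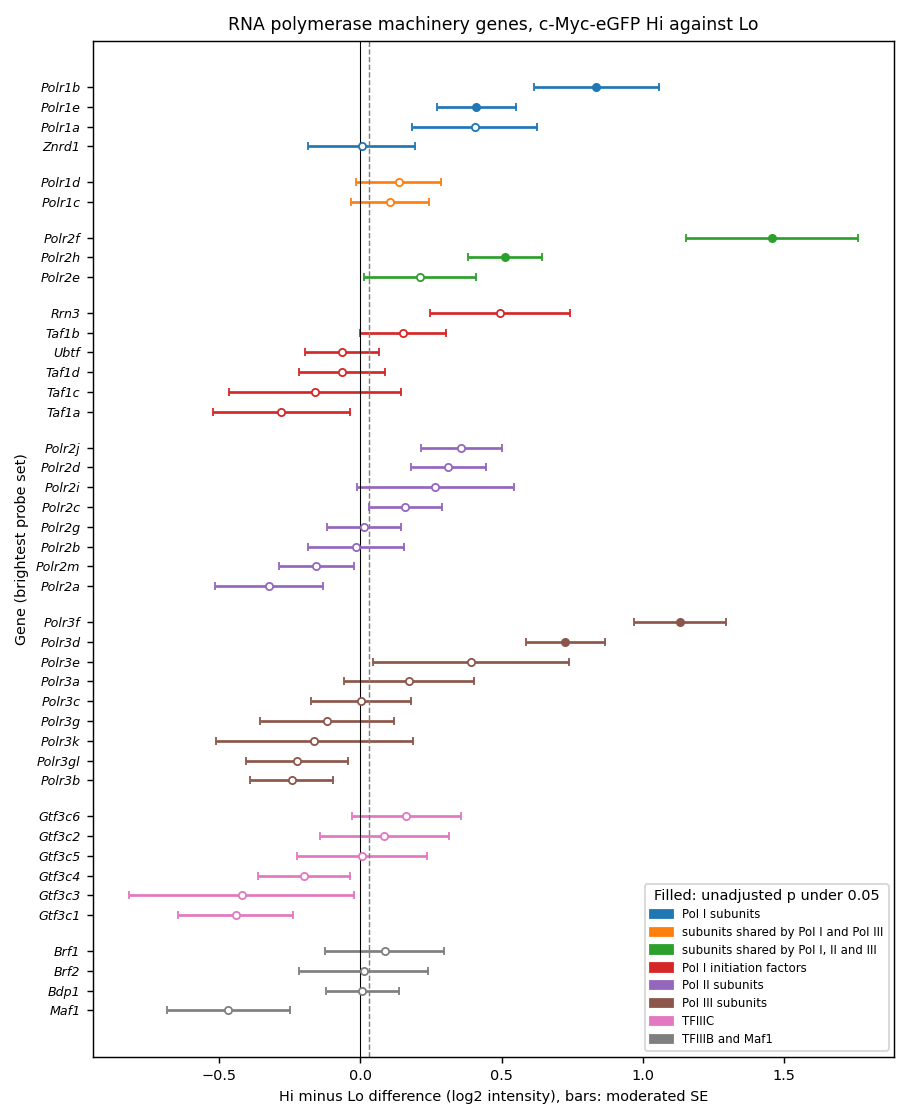
The Hi minus Lo difference of each of the 42 genes on the log2 scale, grouped by role, with the moderated standard error; filled points have an unadjusted p under 0.05 and the dashed line is the median of all genes. The 6 filled points lie at 0.41 to 1.46, in the polymerase I, shared and polymerase III groups, and those of polymerase II, TFIIIC and TFIIIB are open.

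The upstream sequences of the members were searched for the E-box CACGTG, which reads the same on both strands and is the classical binding site of c-Myc with Max. RefSeq windows from 250 bases before to 50 bases after a gene's start (GRCm38.p6) were at hand for 35 of the 42 genes, 46 windows in all. A match lay in 6 of the 35 genes (17.1%), against 8.09% of the 27025 genes in the table; these were Rrn3, Polr2h, Polr3c, Polr3e, Polr3gl and Gtf3c6. The variant CACGCG, read on both strands (CGCGTG on the other) and chosen after the data were seen, lay in 13 of 35 genes (37.1%), against 10.5%. Member windows had a median GC content of 59.2%, against 52.7% for all windows. By the brightest probe sets, the median difference of the 6 genes with CACGTG was 0.28 and that of the 29 without was 0.01. For CACGCG these medians were 0.0033 with a match and 0.046 without. The 6 genes ran from -0.23 for Polr3gl to 0.51 for Polr2h, and among them only Polr2h reached an unadjusted p of 0.05. Their values depend on the probe sets: averaging these moved Polr3e from 0.39 to 0.21 and Polr3c from 0.00 to 0.24. A match is a description of the letters and shows no binding.

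Shown are the windows of 1 polymerase I factor, 1 shared subunit and 1 polymerase III subunit with a match, and of the polymerase I and III subunits with the largest differences, which have none. Each is given from 250 bases before to 30 after the start, plus strand, 5′ to 3′, with CACGTG in capitals. In Polr3e the letters GGTTCGA, which stand in the B box that TFIIIC binds inside transfer RNA genes, are in capitals too. They were searched on both strands (TCGAACC on the other) after the data were seen, and lay in 2 of 35 member genes (Polr3e and Taf1d) and in 1.06% of all genes.
Rrn3, chr16:13780449-13780728: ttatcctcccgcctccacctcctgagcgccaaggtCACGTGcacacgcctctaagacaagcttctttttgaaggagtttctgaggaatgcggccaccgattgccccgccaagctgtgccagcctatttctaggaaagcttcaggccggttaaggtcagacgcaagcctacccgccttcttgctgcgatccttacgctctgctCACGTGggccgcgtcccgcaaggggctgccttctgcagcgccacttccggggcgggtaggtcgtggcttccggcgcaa
Polr2h, chr16:20717576-20717855: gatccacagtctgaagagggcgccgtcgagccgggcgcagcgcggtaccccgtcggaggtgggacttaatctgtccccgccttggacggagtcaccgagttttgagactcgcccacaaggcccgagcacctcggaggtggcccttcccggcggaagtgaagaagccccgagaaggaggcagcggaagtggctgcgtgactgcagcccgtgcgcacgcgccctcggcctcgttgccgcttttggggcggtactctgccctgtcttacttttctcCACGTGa
Polr3e, chr7:120917528-120917807: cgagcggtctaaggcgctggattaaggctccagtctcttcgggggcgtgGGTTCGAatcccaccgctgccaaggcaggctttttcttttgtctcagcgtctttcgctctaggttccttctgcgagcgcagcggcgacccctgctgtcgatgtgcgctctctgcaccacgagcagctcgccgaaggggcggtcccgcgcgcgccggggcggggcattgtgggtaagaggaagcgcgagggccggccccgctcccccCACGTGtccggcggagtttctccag
Polr1b, chr2:129100746-129101025: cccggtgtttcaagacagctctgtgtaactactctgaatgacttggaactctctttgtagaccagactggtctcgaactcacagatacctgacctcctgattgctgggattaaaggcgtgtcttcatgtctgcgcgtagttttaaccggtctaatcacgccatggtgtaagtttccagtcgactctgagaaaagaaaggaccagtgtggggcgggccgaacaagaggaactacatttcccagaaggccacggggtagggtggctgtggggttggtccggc
Polr3f, chr2:144527495-144527774: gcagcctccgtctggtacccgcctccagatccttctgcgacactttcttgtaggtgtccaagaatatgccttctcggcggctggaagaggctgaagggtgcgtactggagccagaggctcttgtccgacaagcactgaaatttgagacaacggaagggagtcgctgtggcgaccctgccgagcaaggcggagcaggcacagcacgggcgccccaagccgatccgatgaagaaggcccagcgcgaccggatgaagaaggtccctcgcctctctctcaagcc
Counted from the start, with its first base as 1, the E-boxes begin at -215 and -48 in Rrn3, at 24 in Polr2h and at 6 in Polr3e. The B box letters in Polr3e begin at -201. A further window of Polr2h, at another listed start, had no match.

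Of the 4 genes of subunits found only in polymerase I, 3 had both Hi values above both Lo values, as had 30.0% of all genes, and 2 of these, Polr1b and Polr1e, reached an unadjusted p of 0.05. Polr1b encodes the second largest subunit, which forms the active site together with Polr1a. Its log2 levels were 9.29 and 9.42 in Hi and 8.77 and 8.27 in Lo, so both Hi arrays were above both Lo arrays by more than the Lo arrays differed. The difference was 0.84 ± 0.22 (SE), 1.79-fold, with an unadjusted p of 0.0198 and an adjusted p of 0.191. Polr1e, whose product PAF53 is a subunit that helps polymerase I bind its initiation factors, had 10.79 and 10.77 in Hi and 10.45 and 10.29 in Lo. Its difference was 0.41 ± 0.14 (SE), 1.33-fold, with an adjusted p of 0.261. Its dimmer probe set had 9.95 on both Hi arrays and 9.29 and 9.30 in Lo, a difference of 0.66 ± 0.13.

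Polr1a encodes the largest, catalytic subunit of polymerase I. Its brightest probe set had 9.71 and 9.77 in Hi and 9.08 and 9.59 in Lo, a difference of 0.41 ± 0.22 (SE) with an adjusted p of 0.428. The Lo arrays of that probe set differed by more than the group means did. A second probe set, hardly dimmer, had 9.85 and 9.76 in Hi and 9.07 and 8.92 in Lo, and a further one had 8.06 and 7.99 against 7.35 and 7.02. Their differences were 0.80 ± 0.14 and 0.84 ± 0.18, with adjusted p of 0.123 and 0.146, so the value for Polr1a depends on the probe set while its direction does not. The remaining subunit gene Znrd1, whose product takes part in RNA cleavage by polymerase I, had 11.41 and 11.05 in Hi and 11.16 and 11.30 in Lo. Its groups overlapped, and the 95% interval of its difference ran from -0.52 to 0.53. The median of the 4 polymerase I subunits was 0.41, and it ran from 0.32 to 0.46 with single arrays left out.

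Of the 6 initiation factor genes of polymerase I, 0 reached an unadjusted p of 0.05, and their median was -0.07. It was 0.09 with each gene's probe sets averaged, so its sign depends on the choice of probe sets. Rrn3 (TIF-IA), which couples polymerase I to growth signals and carries the 2 E-boxes shown above, had 11.92 and 11.98 in Hi and 11.75 and 11.16 in Lo. Both Hi arrays were higher, but the gap to Lo replicate 1 was small beside that to Lo replicate 2. The difference was 0.49 ± 0.25 (SE), adjusted p = 0.399, and leaving out Lo replicate 2 gave 0.20, Lo replicate 1 0.79. Ubtf, the factor that keeps ribosomal DNA open, was bright and close on all 4 arrays, with 12.89 and 12.86 in Hi and 12.92 and 12.96 in Lo. Its difference was -0.06 ± 0.13, and its sign turned to 0.03 when the arrays were shifted to 1 median. By the brightest probe set, the 4 SL1 genes Taf1a, Taf1b, Taf1c and Taf1d had differences from -0.28 to 0.15, and the groups overlapped in each. Of the 7 probe sets of Taf1d, 5 were higher in Hi. A much dimmer one had 6.32 and 6.60 in Hi and 5.41 and 5.81 in Lo, a difference of 0.85 ± 0.22. Averaging the 7 gave 0.38 ± 0.18.

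Among subunits shared between the enzymes, Polr2f and Polr2h stood out. Both encode small subunits, RPB6 and RPB8, that polymerases I, II and III all contain. Polr2f had 10.36 and 9.90 in Hi and 8.36 and 8.99 in Lo. Both Hi arrays lay well above both Lo arrays, although the arrays within each group also differed. Its difference of 1.46 ± 0.30 (SE), 2.75-fold, was the largest of the 42 genes, with an unadjusted p of 0.00890 and an adjusted p of 0.146. It has a second, much dimmer probe set with a difference of 0.28 ± 0.27, and the mean of both gave 0.87. Polr2h, with an E-box just after its start, had 11.78 and 11.79 in Hi and 11.31 and 11.24 in Lo. Its arrays agreed closely within each group, and the difference was 0.51 ± 0.13, 1.43-fold, with an adjusted p of 0.185. Polr2e, which encodes RPB5, had 11.49 and 11.48 in Hi but 11.06 and 11.49 in Lo, so Lo replicate 2 was level with Hi. Its difference was 0.21 ± 0.20. The subunits shared by polymerases I and III only, which start the assembly of both enzymes, were bright and a little higher in Hi. Polr1c had a difference of 0.11 ± 0.14 and Polr1d of 0.14 ± 0.15, with no overlap of the groups in either. All 4 probe sets of Polr1d were higher in Hi, by 0.14 to 0.38.

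**Figure D2:**
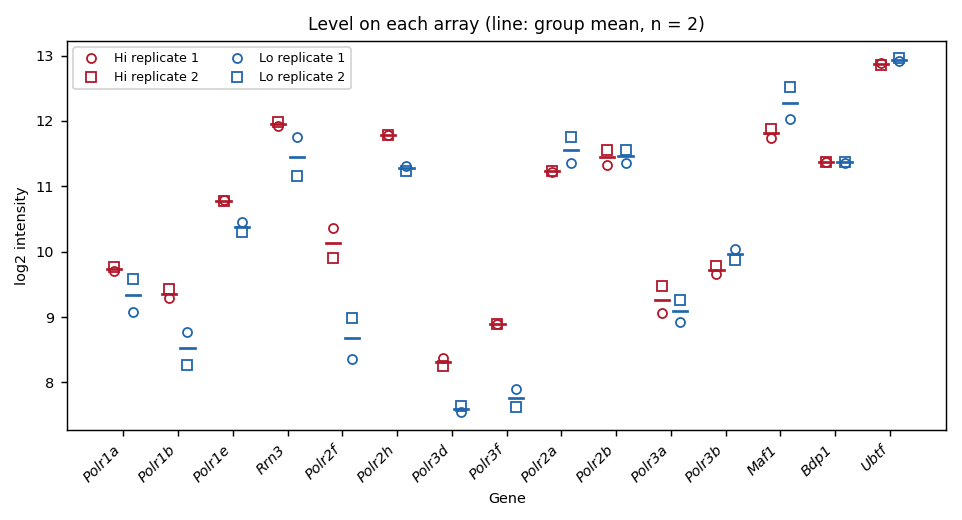
Log2 intensity of 15 of the genes on each of the 4 arrays, with the mean of each group as a line (n = 2); intensities of different probe sets are not comparable between genes. The Hi points of Polr1b, Polr2f, Polr2h, Polr3d and Polr3f lie clearly above the Lo points. Those of Maf1, Polr2a, Polr3b and, by very little, Ubtf lie below them, and Bdp1 has 4 points between 11.36 and 11.38.

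The 8 genes of subunits found only in polymerase II had smaller differences, from -0.32 to 0.36. In the main fit 0 of 8 reached an unadjusted p of 0.05, where 9.25% of all genes were higher and 11.0% lower. Polr2a, whose product is the largest subunit with the C-terminal repeat domain, had 11.23 and 11.24 in Hi and 11.36 and 11.76 in Lo. Both Hi arrays were lower, by little against Lo replicate 1. The difference was -0.32 ± 0.19 (SE), adjusted p = 0.460, leaving out Lo replicate 2 gave -0.12 and Lo replicate 1 -0.52, and the second probe set gave 0.02 ± 0.16. Polr2b, the second largest subunit, had 11.32 and 11.56 in Hi and 11.36 and 11.56 in Lo. Its groups overlapped almost fully, with a difference of -0.02 ± 0.17 and a 95% interval from -0.49 to 0.46, so a change as large as that of Polr1b was outside the interval. On the higher side were Polr2j, which encodes RPB11, with 11.45 and 11.48 in Hi and 11.01 and 11.20 in Lo, and the stalk subunit gene Polr2d, with 11.07 and 11.15 against 10.80 on both Lo arrays. Their differences were 0.36 ± 0.14 and 0.31 ± 0.13, with adjusted p of 0.317 and 0.336. Both reached an unadjusted p under 0.05 with arrays shifted to 1 median, an offset of 16 or a prior variance by intensity. In those fits 10.1% to 12.9% of all genes were higher at that p. Polr2c was at 0.16, Polr2i at 0.26 and Polr2g, the partner of Polr2d in the stalk, at 0.01. Polr2m, whose product Gdown1 holds polymerase II in check, was lower on both Hi arrays, with a difference of -0.16 ± 0.13.

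By the brightest probe sets polymerase III was split, with 2 of 9 subunit genes, Polr3f and Polr3d, above the rest. Only these were higher at an unadjusted p under 0.05 (22.2%, against 9.25% of all genes). Dimmer probe sets of Polr3c and Polr3k, given below, were higher as well. The median of the 9 genes was 0.0033, and 0.22 with each gene's probe sets averaged. Polr3f encodes a subunit (RPC6, or RPC39) of the trio that meets TFIIIB at the promoter. It had 8.89 on both Hi arrays and 7.90 and 7.62 in Lo. The Hi arrays were almost equal and both lay well above Lo, with a difference of 1.13 ± 0.16 (SE), 2.19-fold, an unadjusted p of 0.00236 and an adjusted p of 0.102. Its other 3 probe sets above the dim limit were higher in Hi too, by 0.38 to 1.01, and averaging its probe sets gave 0.74. The other members of the trio did not stand apart. Polr3c had 10.50 and 10.63 in Hi and 10.40 and 10.72 in Lo, a difference of 0.00 ± 0.18, though its dimmer probe set had 8.62 and 8.52 against 8.16 and 8.04, a difference of 0.47 ± 0.14. Polr3g had 8.21 and 8.75 in Hi and 8.51 and 8.69 in Lo, and its paralogue Polr3gl had 8.79 and 8.95 against 8.94 and 9.25. Polr3g is known as the form of embryonic stem cells and Polr3gl as the widely expressed form. Both groups of values overlapped, with differences of -0.12 ± 0.24 and -0.23 ± 0.18.

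Polr3d and Polr3e encode the RPC4 and RPC5 subunits, which form a pair that acts in initiation and termination. Polr3d had 8.38 and 8.26 in Hi and 7.55 and 7.64 in Lo. The groups were apart by several times the distance within them, with a difference of 0.73 ± 0.14 (SE), 1.65-fold, and an adjusted p of 0.134. Its other probe set gave 0.79 ± 0.16. Polr3e, whose window carries both an E-box and the B box letters, had 9.57 and 9.95 in Hi and 8.95 and 9.78 in Lo. Its Lo arrays lay far apart and overlapped with Hi, and the difference was 0.39 ± 0.35. The catalytic subunit genes did not reach an unadjusted p of 0.05. Polr3a had 9.06 and 9.47 in Hi and 8.92 and 9.26 in Lo, a difference of 0.17 ± 0.23, and Polr3b had 9.66 and 9.78 against 10.05 and 9.88, a difference of -0.24 ± 0.15. The 3 probe sets of Polr3a gave 0.13 to 0.38, the highest from one under the dim limit, and those of Polr3b gave -0.25 to 0.48.

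Polr3k encodes RPC11, the subunit that cleaves RNA at the active site, and its probe sets disagreed widely. The brightest had 11.27 and 11.09 in Hi and 11.79 and 10.89 in Lo, so that the Lo arrays lay on both sides of Hi and the difference was -0.16 ± 0.35 (SE). A slightly dimmer one had 10.52 and 10.40 in Hi and 9.20 and 9.21 in Lo, and another had 10.53 and 10.28 against 9.32 and 9.24. Their differences of 1.26 ± 0.14 and 1.13 ± 0.16 were close to that of Polr3f, with adjusted p of 0.0906 and 0.101. Another bright probe set gave 0.02 ± 0.38, and a dim one gave -0.59 ± 0.16. No single value can therefore be given for Polr3k.

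The 6 genes of TFIIIC, the complex that binds the internal promoters of transfer RNA genes, had a median of -0.10, and 0 of 6 reached an unadjusted p of 0.05. With each gene's probe sets averaged this median was 0.10, so its sign depends on the choice of probe sets. Gtf3c1, the largest TFIIIC subunit, which contacts the B box, had 9.39 and 9.36 in Hi and 9.60 and 10.04 in Lo. Both Hi arrays were lower and the difference was -0.44 ± 0.20 (SE), adjusted p = 0.366, while a dimmer probe set gave 0.29 ± 0.15. Gtf3c2 stood at 0.08 ± 0.23 by its brightest probe set, with 9.96 and 10.36 in Hi and 10.26 and 9.90 in Lo. By 2 others it stood at 0.65 ± 0.15 and 0.74 ± 0.21. Gtf3c3, Gtf3c4, Gtf3c5 and Gtf3c6 ran from -0.42 to 0.16.

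The TFIIIB genes within the rule, Bdp1, Brf1 and Brf2, had differences near 0. Bdp1 had 11.37 and 11.38 in Hi and 11.36 and 11.37 in Lo, a difference of 0.01 ± 0.13 with a 95% interval from -0.35 to 0.37. Brf1, the TFIIIB subunit for transfer RNA genes, had 8.32 and 8.55 in Hi and 8.14 and 8.56 in Lo, and Brf2, its counterpart for U6-type promoters, had 9.06 and 8.72 against 8.67 and 9.08. Their groups overlapped, with differences of 0.09 ± 0.21 and 0.01 ± 0.23. The TFIIIB subunit gene Tbp, which falls outside the rule, was not near 0. It had 11.23 and 11.26 in Hi and 11.00 and 9.96 in Lo. The difference was 0.76 ± 0.39, adjusted p = 0.406, with Lo replicate 2 far below the other arrays. Maf1, the repressor that binds polymerase III when growth signals fall, was lower in Hi by every probe set. The brightest had 11.74 and 11.87 in Hi and 12.04 and 12.51 in Lo. Both Hi arrays lay below both Lo arrays, and Lo replicate 2 was the highest on all 3 probe sets. The differences were -0.47 ± 0.22, -0.45 ± 0.20 and -0.54 ± 0.23, with adjusted p of 0.371, 0.351 and 0.328. For the first, leaving out Lo replicate 2 gave -0.23 and Lo replicate 1 gave -0.71.

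Over all 90 probe sets, more pointed up than the 42 brightest alone. Hi lay above Lo on every array in 37 of 90 (41.1%), against 29.3% of all probe sets, and below in 13 (14.4%), against 22.0%. At an unadjusted p under 0.05, 19 were higher (21.1%, against 9.05%) and 1 was lower (1.11%, against 8.91%). The 19 belong to 13 genes, and probe sets of 1 gene share its transcript, so they are not independent. Of the 90, 8 stayed under the dim limit, the level of controls for absent bacterial transcripts, on every array. Of 21 genes with more than 1 probe set above it on some array, 12 had all of these on one side of 0 and 9 had both signs. Besides Polr3k, Gtf3c1 and Gtf3c2, these include Taf1d, whose 7 probe sets ran from -0.22 to 1.02, Polr3b, from -0.25 to 0.48, and Gtf3c4, from -0.20 to 1.02. The other 3 were Ubtf, Polr2a and Bdp1. With each gene's probe sets averaged, the median of the 42 genes was 0.16, beside 0.05 over all genes. Then 7 members were higher at an unadjusted p under 0.05 (against 11.3% of all genes), Polr1a joining the 6, and 0 lower (against 11.0%). No member passed an adjusted p of 0.05 in that fit, where 1.39% of all genes were called higher and 1.52% lower; the closest was Polr3d at 0.0623. Nor did any in a fit over 1 probe set per gene, which called 1.04% higher and 1.18% lower; there the closest was Polr3f at 0.0567.

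**Figure D3:**
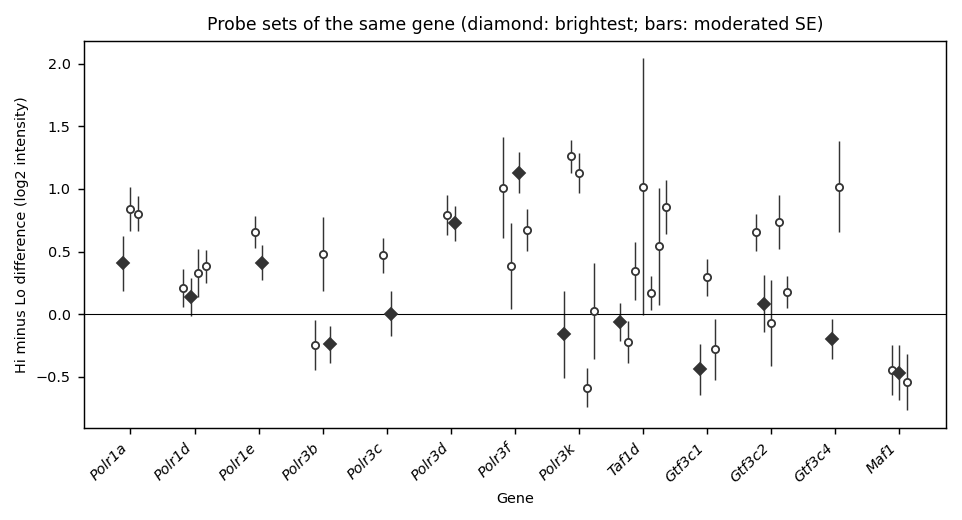
Hi minus Lo difference on the log2 scale of each probe set above the dim limit on at least 1 array, for 13 genes with more than 1 such probe set, with the moderated standard error; diamonds mark the brightest. The probe sets of Polr1a, Polr1d, Polr1e, Polr3d, Polr3f and Maf1 lie on one side of 0, and those of Polr3k run from -0.59 to 1.26.

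The arrays within the Lo group differed more than those within Hi, and this touches most of the smaller values above. The SD between the Lo arrays exceeded that between the Hi arrays in 32 of the 42 genes (76.2%), against 62.1% of all genes. The median SD of the members was 0.23 in Lo and 0.09 in Hi. When each gene was set against its own mean over the 4 arrays, the polymerase I subunits had medians of 0.20 and 0.21 on the Hi arrays, against -0.15 and -0.12 on the Lo arrays. The subunits shared by all 3 enzymes had 0.25 and 0.26 on the Hi arrays, against -0.32 and -0.29 on the Lo arrays. In these groups of genes the medians of replicate arrays lay close, but single genes could differ more. On the Lo arrays Polr1a had 9.08 and 9.59, Polr2e 11.06 and 11.49, and Polr2f 8.36 and 8.99. A median over so few genes can rest on different genes on different arrays. For the polymerase III subunits the medians were -0.06 and 0.21 in Hi and -0.16 and 0.09 in Lo, and for TFIIIC -0.03 and -0.12 against -0.12 and 0.17. There the medians of replicates differed by as much as those of Hi and Lo. Gene by gene, the median SD between the Lo arrays was 0.23 for the polymerase I subunits and 0.30 for the subunits shared by all 3 enzymes. It was 0.23 for the polymerase III subunits and 0.28 for TFIIIC. The array medians thus do not measure how closely replicates of single genes agreed.

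**Figure D4:**
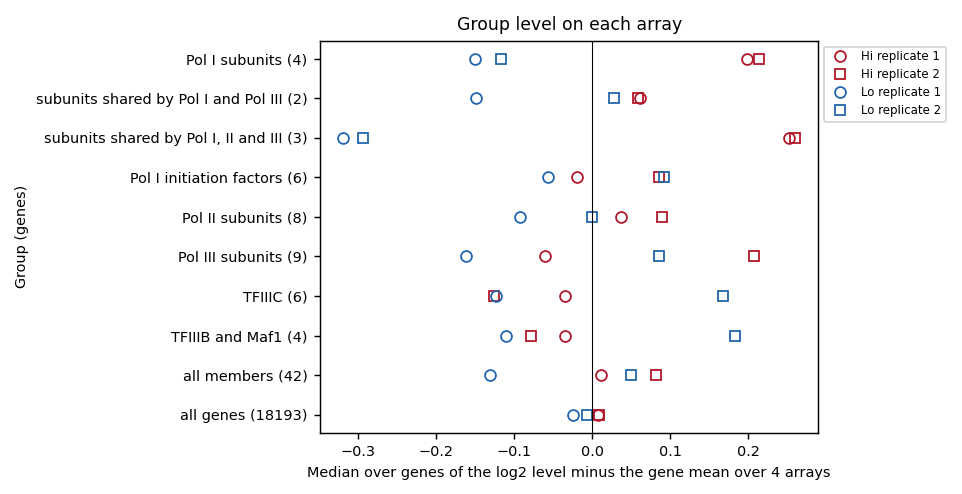
For each role group, the median over its genes of the log2 level minus the gene's own mean over the 4 arrays, shown for each array, with the number of genes in brackets. Hi and Lo points are far apart for the polymerase I subunits and for the subunits shared by all 3 enzymes, and interleaved for the polymerase III subunits, TFIIIC and TFIIIB with Maf1. The spread of single genes between replicates is not shown.

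Related genes outside the rule give the setting. Of 28 measured general initiation factor genes of polymerase II, 7 were higher in Hi and 1 was lower (unadjusted p under 0.05), with a median of 0.25. At that p, 9.25% of all genes were higher and 11.0% lower, shares to set beside each list here. Gtf2a2, a small subunit of TFIIA, had 12.32 and 12.34 in Hi and 11.60 and 11.56 in Lo, and Gtf2h4 of TFIIH had 9.55 on both Hi arrays and 8.99 and 8.90 in Lo. Their differences were 0.75 ± 0.13 (SE) and 0.61 ± 0.13, with adjusted p of 0.119 and 0.155. Of 20 measured pausing and elongation genes, 3 were higher and 1 lower, with a median of 0.03. Nelfa and Nelfe, subunits of the factor that holds polymerase II at its pause site, had differences of 0.84 ± 0.13 and 0.95 ± 0.17. Of 10 polymerase assembly genes, 1 was higher and 0 lower; it was Gpn3, a GTPase needed to bring polymerase II into the nucleus, at 0.53 ± 0.13, followed by Ruvbl2 at 0.44 ± 0.18. Of 15 further subunits and factors of polymerases I and III, 0 reached that p in either direction, and their median was 0.11. The 2 closest were Cd3eap, a polymerase I subunit, at 0.38 ± 0.16, and Ttf1, which ends polymerase I transcription, at -0.56 ± 0.24. Of 8 mitochondrial transcription genes, 0 were higher and 1 lower, Mterf2 at -0.58 ± 0.13; Tfb1m stood at 0.45 ± 0.25. None of these genes passed an adjusted p of 0.05.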

How the data were processed

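The deposited values are 1 linear intensity per probe set and array, made with RMA per the submitters' processing notes, which give no version. The deposited intensities were log2-transformed without an offset. Of 45101 probe sets, 64 controls were left out. Hi minus Lo was fitted over the remaining 45037 with limma 3.58.1 in R 4.3.3 (lmFit, eBayes, 2 residual degrees of freedom plus 1.98 from the prior, no block, two-sided), with Benjamini-Hochberg adjustment over all of them and a threshold of 0.05. Symbols came from the platform annotation, matched by Entrez identifier to a GRCm38.p6 gene table, which changed none. The brightest probe set over 4 arrays represented a gene. The dim limit of an array was the brightest of 27 bacterial control probe sets, 4.74 to 4.87 (log2). The members, lists and rules were chosen with earlier results of these data known. Described by rule were 14 set members and, by role group, up to 3 genes per direction with the smallest unadjusted p under 0.05 and groups that did not overlap; of each related list, the 2 genes with the smallest p; other names were chosen after their values were seen. The fit was tested on simulated data. Deviations of same-numbered arrays correlated at 0.07. Fold values are fitted log2 differences turned into ratios. The number of arrays limits the precision.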

Additional observations from a re-analysis of the deposited data

How the results depend on the processing

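The Hi minus Lo values were recomputed under 12 alternatives: a replicate block, each array left out, an offset of 16, cyclic loess, arrays shifted to 1 median, a dim filter, a prior variance that depends on intensity, each gene's probe sets averaged, and 1 probe set per gene. Under each, 0 members passed an adjusted p of 0.05. The number of members higher at an unadjusted p under 0.05 was 6, and 5 to 8 under the alternatives other than leaving out an array, which gave 2 to 7; the number lower was 0, and 0 to 3 with an array left out. Leaving out an array also leaves fewer residual degrees of freedom. The share of all genes higher at that p moved with the setting too. It was 9.25% in the main fit, and 7.77% (replicate block) to 12.9% (arrays shifted to 1 median) with all arrays kept. For the members it was 14.3%, and 11.9% to 19.0%. The dim filter gave 11.9% of members, close to 11.0% of the genes kept, and the median shift 19.0% against 12.9%. Each count is therefore to be read beside the share of all genes in its setting. The median of the members was 0.05, ran from -0.013 to 0.17 with an array left out, and was 0.16 with probe sets averaged; the cause was not tested. With a replicate block, 5 members were higher and 0 lower, Polr1e no longer being among them; the shared numbers are not stated to pair the arrays. With arrays shifted to 1 median, 59.2% of all genes at an unadjusted p under 0.05 were higher, against 45.7%, and 8 members were. There the polymerase II genes Polr2d and Polr2j joined the 6, as they did with the offset and with the prior variance by intensity. Among the named genes, these changed sign. Bdp1 was -0.023 with cyclic loess and -0.056 with probe sets averaged, Polr2b was 0.079 and Ubtf 0.030 with arrays shifted to 1 median, and Ubtf was 0.021 with probe sets averaged. With an array left out, Brf1 ran from -0.12 to 0.29, Brf2 from -0.19 to 0.22, Polr2b from -0.13 to 0.10, Polr3a from -0.035 to 0.38 and Polr3g from -0.39 to 0.15.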
